A study of Mus musculus with 16 samples.

Results

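The cytosolic ribosomal protein genes were taken as the protein-coding mouse genes whose symbols are Rpl or Rps with a number, together with Rpsa, Rplp0, Rplp1 and Rplp2, where their mean over all libraries reached 1 CPM (counts scaled to the library total). Of 84 such symbols, 79 met the minimum, of 55414 genes in the table: 32 genes of the small subunit and 47 of the large subunit. RNA was sequenced from Paneth cells sorted from the small intestine of C57BL/6J mice. Mice received PBS or DEX and, 1 h later, PBS or tumour necrosis factor (TNF), and were sampled 3 h after the second injection. There were 16 libraries, 4 for each pair of injections: DEX+TNF for both agents, DEX+PBS and PBS+TNF for either agent alone, and PBS+PBS for the controls. DEX is not spelled out in the sources, and ages are not given there. The study describes each sample as cells from an individual mouse, while the labels give replicate numbers only.

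The cytosolic ribosome joins a small subunit, which reads the mRNA, to a large subunit, which forms the peptide bond, and each protein is needed in about equal amount per ribosome. The mRNAs of most ribosomal proteins begin with a run of pyrimidines, the 5′ terminal oligopyrimidine tract, through which growth signals set their translation together. Paneth cells make and secrete large amounts of antimicrobial protein and carry a dense rough endoplasmic reticulum. Several ribosomal proteins have a paralogue encoded elsewhere, such as Rps27l beside Rps27, Rpl22l1 beside Rpl22 and Rpl7l1 beside Rpl7.

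The 30 bases around the RefSeq start site (15 before and 15 from the start on, GRCm38.p6) are shown for 13 genes described below, with and without a pyrimidine run. Capitals mark the longest pyrimidine run where it reached 7 bases.
Rps3, chr7:99483695-99483724, minus strand: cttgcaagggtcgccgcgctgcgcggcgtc
Rps7, chr12:28635939-28635968, minus strand: gcttccggtttccacccacctacttccgct
Rpl41, chr10:128549154-128549183, minus strand: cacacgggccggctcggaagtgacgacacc
Rplp0, chr5:115559452-115559481, plus strand: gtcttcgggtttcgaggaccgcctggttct
Rplp2, chr7:141447636-141447665, plus strand: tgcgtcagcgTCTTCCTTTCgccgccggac
Rps6, chr4:86857353-86857382, minus strand: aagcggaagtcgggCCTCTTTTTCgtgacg
Rps12, chr10:23787195-23787224, minus strand: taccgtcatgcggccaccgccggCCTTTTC
Rpl4, chr9:64173372-64173401, plus strand: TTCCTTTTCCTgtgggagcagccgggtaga
Rps27, chr3:90213634-90213663, minus strand: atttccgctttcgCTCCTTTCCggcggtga
Rps27l, chr9:66946071-66946100, plus strand: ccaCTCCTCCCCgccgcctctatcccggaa
Rpl22, chr4:152324421-152324450, plus strand: cgctgcttctggaatgttccagctcccact
Rpl22l1, chr3:28805493-28805522, plus strand: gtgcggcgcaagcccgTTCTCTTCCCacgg
Rpl7l1, chr17:46782642-46782671, minus strand: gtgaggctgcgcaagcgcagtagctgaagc
Rps3 and Rps7 followed the other members most closely over the libraries, Rplp2, Rps6 and Rps12 also did (r = 0.99 each), Rpl41 and Rplp0 led in level and in counts, and Rpl4 varied least. Rps27 and Rpl22 are shown beside their paralogues Rps27l and Rpl22l1, and Rpl7l1 is the paralogue of Rpl7. Of these 13 windows, 7 held a run of at least 7 pyrimidines, while Rps3, Rps7, Rpl41, Rplp0, Rpl22 and Rpl7l1 did not. The RefSeq table held 58 of the 79 genes by symbol. Where a gene had several starts, the window with the longest run was taken, here and for the sequences above. The shorter motifs below were counted in any of a gene's windows. Genes with more listed starts thus had more chances of a match. A run of at least 7 pyrimidines lay in this window in 32 of the 58, or 55.2%, against 21.3% of 27025 genes. The letters CTTTC stood on the sense strand in 25.9% of the members and 4.76% of all genes, and on the other strand in 3.45% and 4.21%. CTCTTTC, which contains CTTTC, stood on the sense strand in 10.3% and 0.488%, and on the other strand in 1.72% and 0.400%. CTTCC, which can overlap CTTTC in a longer run, differed less between strands: it stood on the sense strand in 20.7% of the members and 7.83% of all genes, and on the other strand in 15.5% and 8.54%. A RefSeq start can lie some bases from the start used in these cells, and a match is a description of the sequence only. The Rpl7l1 window held no run longer than 2 pyrimidines.

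In what follows, CPM of single genes in libraries or groups, and log2 CPM, are further scaled by trimmed-mean (TMM) factors unless called plain. Marker sums are CPM scaled to the library total alone. Before the results, 2 features of the libraries matter. DEX+TNF libraries 3 and 4 had 28.3 and 41.0 CPM of Nfkbia, a gene that TNF induces through NF-kB. Their 2 fellow libraries had 330 and 382, the PBS+TNF libraries 277 to 337, and the 8 libraries without TNF 15.6 to 27.3. The libraries labelled DEX+TNF 3 and 4 thus go against their label for this gene. In addition, 1 library in each group (DEX+TNF 3, DEX+PBS 3, PBS+TNF 1 and PBS+PBS 4) had a trimmed-mean (TMM) scaling factor of 0.418 to 0.755, while the other 12 were at 1.02 or above. Totals were 7286307 to 15832111 counts. The 7 Paneth cell marker genes made 408305 to 609687 CPM in each library. Markers of stem cells summed to 278 to 2293 CPM, and those of goblet cells to 8439 to 21920. Those of tuft cells summed to 0 to 816 and of enterocytes to 4.52 to 442, both highest in DEX+TNF 4, which also had the highest share of mitochondrial counts (3.33%). Immune markers summed to 42.5 to 389 CPM, highest in DEX+PBS 4, and stromal markers stayed at 1.12 CPM or less. In bulk RNA, fewer cells of a type and less RNA per cell cannot be told apart.

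The ribosomal protein genes took a similar and small share of the counts in every group. The share of all counts was 0.924, 1.13, 1.16 and 1.55% in PBS+PBS libraries 1 to 4, and 1.22, 0.898, 1.37 and 1.35% in PBS+TNF. It was 0.939, 1.10, 1.30 and 1.63% in DEX+PBS, and 0.838, 0.845, 1.41 and 1.67% in DEX+TNF. The 4 groups overlapped throughout, with means of 1.19% ± 0.261, 1.21% ± 0.219, 1.24% ± 0.296 and 1.19% ± 0.416 (SD, n = 4 each). The Wilson 95% interval of each library's share spanned at most 0.0140 percentage points and covers counting error only. Outside the Defa genes, the alpha-defensins that alone took 32.2% to 59.3% of all counts, the share was 1.36% to 3.40%. Annotated ribosomal protein pseudogenes, 317 in the table and 164 with a count, added 0.00120% to 0.00343% of all counts.

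**Figure D1:**
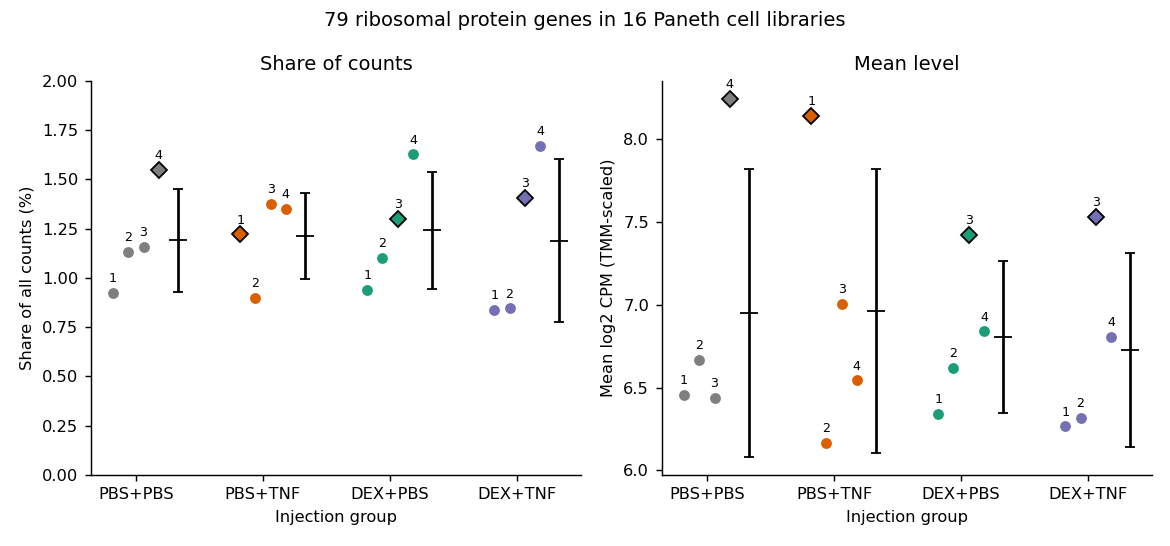
Left, share of all counts (%) in the 79 genes; right, their mean log2 CPM after TMM scaling; points are libraries with their replicate numbers, and bars give the mean ± SD (n = 4). Black-edged diamonds are the 4 libraries with a scaling factor under 0.8: they lead their groups on the right (7.43 to 8.24), but on the left only PBS+PBS 4 leads its group.

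On the TMM scale, in which most genes are held level, the mean log2 CPM of the 79 genes was 6.45, 6.67, 6.44 and 8.24 in PBS+PBS, and 8.14, 6.17, 7.0 and 6.54 in PBS+TNF. It was 6.34, 6.62, 7.43 and 6.84 in DEX+PBS, and 6.27, 6.32, 7.53 and 6.81 in DEX+TNF. The group means of 6.95 ± 0.869, 6.96 ± 0.857, 6.81 ± 0.460 and 6.73 ± 0.586 differed by less than the SD within any group. In each group the library with the low scaling factor was the highest.

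Members differed widely in level. Per kilobase of coding sequence (without the stop codon), the mean over 16 libraries ran from 6.87 to 4918 TMM-scaled CPM, with a median of 295. The highest was Rpl41 (ENSMUSG00000093674, chromosome 10, 128383979 to 128387628, minus strand, GRCm39), which encodes the shortest protein of the ribosome. Its 4918 rests on a coding length of 75 bases, which is far shorter than its mRNA. Rps29 followed with 1162 and Rps12 with 1057, both proteins of the small subunit. Rplp0, the stalk protein that binds the translation factors with Rplp1 and Rplp2, stood at 715 per kilobase and took the most counts of any member (5.25% of the list's counts). The lowest were Rps4l (6.87), a paralogue of the X-linked Rps4x, Rpl13a (9.01), which also silences inflammatory mRNAs in myeloid cells, and Rpl7l1 (40.3).

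Some low values bear on how the counts were made. Rpl13a, Rps10 and Rpl24 had only 1106, 87 and 15 counts over all libraries, although every ribosome holds their proteins. In each, 97.5%, 92.1% and 83.4% of the coding bases also belong to a same-strand readthrough gene (Gm45713, Gm49804 and Gm28037), and each of those genes had 0 counts. Of the other symbols, only Rpl19 overlapped a same-strand gene, Gm54878 (13.6% of its coding bases, 0 counts), and Rpl19 had 23486 counts. Whether reads shared by overlapping genes were left out is not stated, and its part in these values was not tested. Rpl24 and Rps10 fell under the minimum. So did Rpl10l, Rpl39l and Rpl3l, paralogues known mainly from testis or muscle, at 0 counts, which allows up to 0.0145 CPM over the 16 libraries together. Ribosomal protein genes also have many processed pseudogenes. The median member had 96.3% of the 31-base windows of its coding sequence elsewhere in the genome, and 74 of the 79 had over 50%. Levels of members with near-identical copies are uncertain, since the handling of reads that match several places is not stated.

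The members moved together from library to library. Over the 16 libraries, the median correlation between 2 members was 0.96 (log2 CPM, TMM scale), against -0.0017 between 2 of all 11809 genes tested. On deviations from group means it was 0.97, and without the 4 libraries of low scaling factor 0.82. On plain CPM, with no scaling factors, it was 0.83 for the members and 0.48 for all genes. These points share the depth and scaling of each library. The mean over members took 88.4% of the members' variance over libraries on the TMM scale and 67.8% on plain CPM. Over all genes the share was 0.522% on the TMM scale, which holds most genes level and so keeps all-gene values near 0. Other lists, described below, also had median correlations within them on that scale. These were 0.79 for 13 elongation factors and ribosome partners and 0.63 for 77 mitochondrial ribosomal proteins. They were 0.19 for 45 ribosome biogenesis genes and 0.06 for 34 initiation factors. The mean levels of small and large subunit genes had a correlation of 0.998. Differences between groups made up a median of 3.28% of a member's sum of squares, against 24.3% for all genes. Means of 4 libraries also differ by sampling alone, so these shares do not measure a response.

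**Figure D2:**
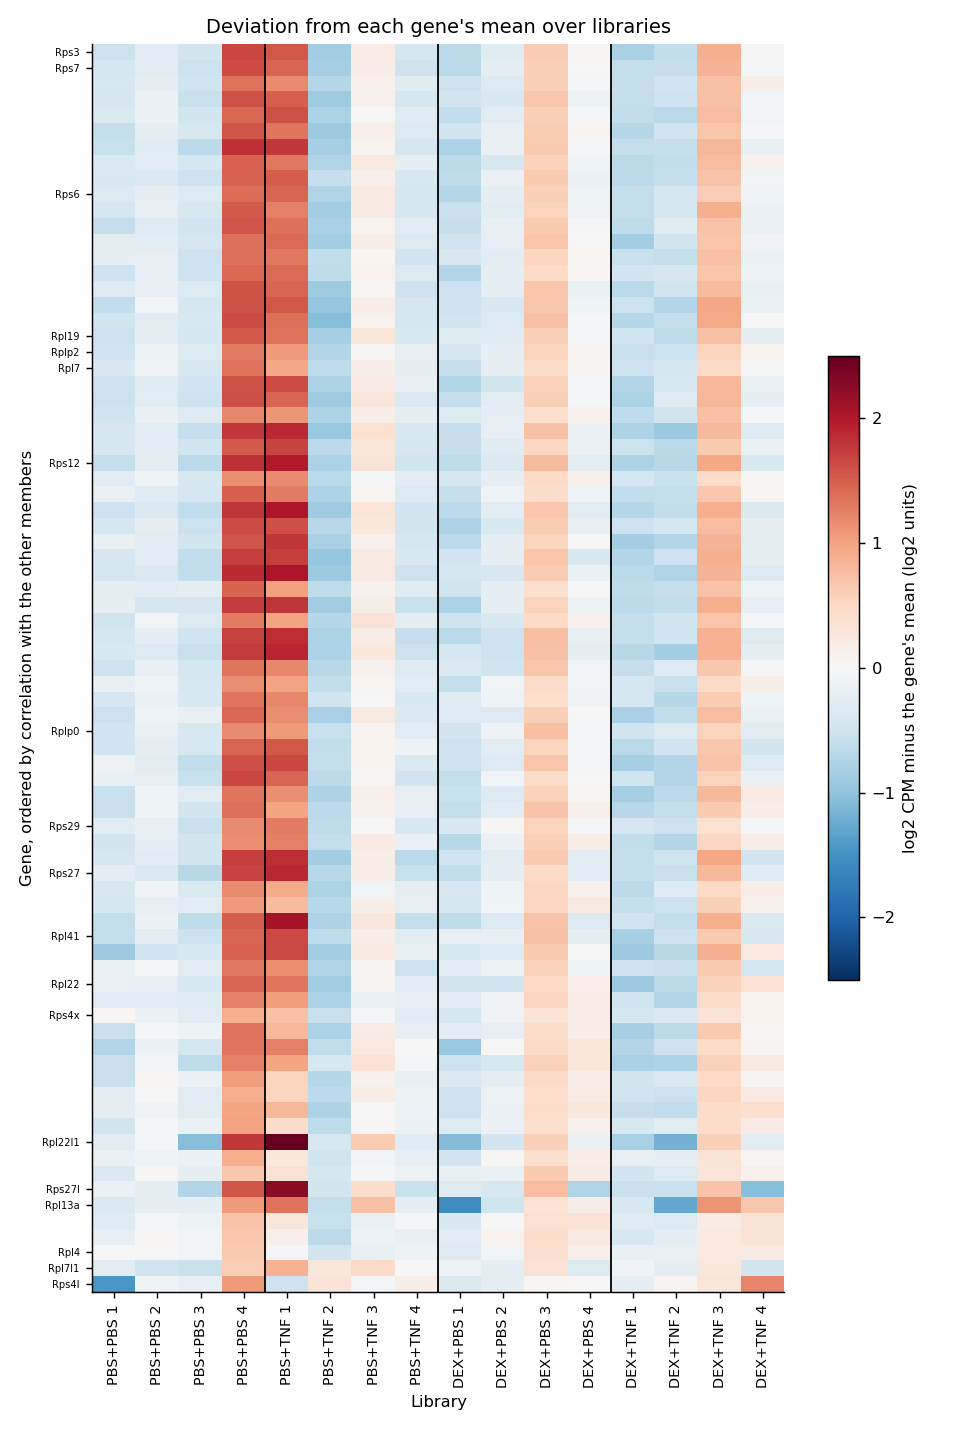
Rows are the 79 genes, some of them labelled, ordered by correlation with the mean of the other members. Columns are the 16 libraries in their 4 groups. Colour is log2 CPM after TMM scaling minus the gene's own mean (log2 units). In PBS+PBS 4, DEX+PBS 3 and DEX+TNF 3 all 79 genes lie above their mean and in PBS+TNF 1 77 do, while the rows at the bottom, Rpl7l1 and Rps4l among them, break the pattern.

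On the TMM scale, where a low factor itself raises a library's values, the 4 highest libraries were exactly those of low factor for 72 of the 79 genes. In the list's share of all counts, only PBS+PBS 4 of these libraries led its group. Rps3, an entry-channel protein of the small subunit, followed the rest most closely (r = 0.998), ahead of Rps7 (0.996). Its level was 183, 223, 194 and 843 TMM-scaled CPM in PBS+PBS, and 784, 146, 305 and 195 in PBS+TNF. It was 169, 216, 412 and 271 in DEX+PBS, and 151, 175, 491 and 270 in DEX+TNF. On this scale a single library led each group, and the groups overlapped. In all, 70 members had an r above 0.9 with the mean of the others.

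The members least like the rest were Rps4l (r = 0.29), Rpl7l1 (0.72) and Rpl4 (0.74). Rpl4, whose long loop lines the exit tunnel and which has the longest coding sequence of the list (1257 bases), also had the smallest SD over libraries, 0.275 log2 units against a median of 0.699. The largest SD was that of Rpl22l1 (1.01), an RNA-binding paralogue of Rpl22. Over the 79 members the SD fell with coding length (Spearman rho = -0.432, a description across genes, which are not independent replicates).

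On the TMM scale, the mean level of the list moved with a slope over coding length in other genes. For each library, a length slope was computed over 11129 tested genes that are no members, as the change of log2 CPM, relative to each gene's mean, per doubling of coding length. It was -0.366 in PBS+PBS 4, -0.257 in PBS+TNF 1, -0.154 in DEX+PBS 3 and -0.160 in DEX+TNF 3, and -0.0546 to 0.143 in the other 12. The correlation between the slope and the mean level of the members was -0.973 over the 16 libraries (Spearman rho = -0.921). It was -0.975 on deviations from group means and -0.939 without the 2 libraries farthest from the median slope. These correlations hold for TMM-scaled levels, and none was computed for the list's share of all counts. That share was highest in DEX+TNF 4 (1.67%, slope 0.0815) and DEX+PBS 4 (1.63%, slope 0.0574). PBS+PBS 4 came next (1.55%, slope -0.366), while PBS+TNF 1 had 1.22% (slope -0.257). The median coding length was 453 bases for the members and 1389 for all tested genes. Genes with under 600 coding bases that are no members deviated by a median of 0.848, 0.652, 0.311 and 0.384 log2 units in those 4 libraries. The Defa share of counts also moved with the list's level (r = 0.876), but less closely by rank (Spearman rho = 0.585). Without the 2 libraries farthest from the median Defa share, r was 0.677. Their part in the level of the list was not tested.

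**Figure D3:**
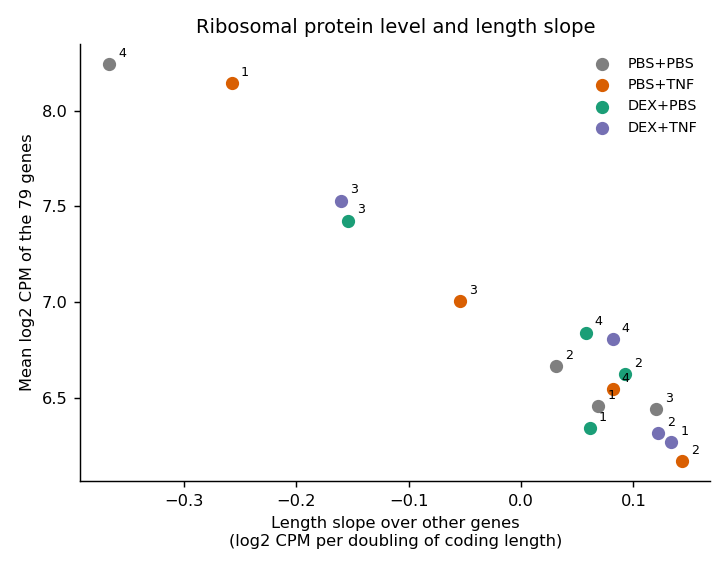
Each point is 1 of the 16 libraries, coloured by group and marked with its replicate number; the horizontal axis is the length slope over genes that are no members and the vertical axis the mean log2 CPM of the 79 genes. The points fall along a line from PBS+PBS 4 (slope -0.366, level 8.24) to PBS+TNF 2 (0.143, 6.17), with all 4 groups spread along it.

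The first comparison asked what TNF did after PBS. No ribosomal protein gene changed with edgeR's quasi-likelihood test at an adjusted p under 0.05, where 12.5% of the 11809 genes tested were called. None of the 79 had an unadjusted p under 0.05, and DESeq2 called none. The median log2 fold change was -0.01 for the members (35 above 0 and 44 below) and -0.03 for all genes, with a median SE of 0.493 for the members against 0.335 for all genes. No member separated the 4 PBS+TNF from the 4 PBS+PBS libraries without overlap, which 19.5% of all genes did. The median rested on single libraries: it was 0.67 without PBS+PBS 4 and -0.58 without PBS+TNF 1.

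Rpl7l1 came nearest to the threshold (ENSMUSG00000063888, chromosome 17, 47084824 to 47093606, minus strand, GRCm39). It encodes a paralogue of Rpl7 that takes part in assembling the large subunit. Its level was 23.6, 20.1, 19.5 and 43.8 CPM in PBS+PBS and 51.8, 34.5, 39.6 and 28.3 in PBS+TNF. It was 26.1, 23.9, 36.7 and 22.5 in DEX+PBS, and 26.9, 23.9, 34.3 and 20.7 in DEX+TNF. On this TMM scale, all PBS+TNF libraries lay above the first 3 PBS+PBS libraries, and PBS+PBS 4 lay within the PBS+TNF range. PBS+PBS 4 and PBS+TNF 1 had scaling factors of 0.503 and 0.418, which raise their values above plain CPM. Which library breaks the separation therefore depends on the scaling. The log2 fold change was 0.53 ± 0.28 (SE), with an adjusted p of 0.242 by edgeR. It was called in 3 of 31 alternatives: 0.84 without PBS+PBS 4 (adjusted p = 0.0297), 0.61 ± 0.14 with the length slope as covariate (adjusted p = 0.00555) and 0.69 without the 4 libraries of low scaling factor (adjusted p = 0.0195). Adjusted p-values over the 31 ran from 0.00555 to 0.744, and all 31 gave a higher level in PBS+TNF. The last 2 alternatives were added after the data had been seen.

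Rpl7l1 was the single member called with the length slope as covariate, where 22.6% of all genes were called, and without those 4 libraries, where 14.4% of 11982 genes were. With that covariate the median SE of the members was 0.160 and the median fold change 0.08, and 3 members had an unadjusted p under 0.05. These were Rpl7l1, Rpl22l1 (0.61 ± 0.23, adjusted p = 0.061 by edgeR) and Rpl4 (-0.32 ± 0.15, adjusted p = 0.136). Because members are short themselves, the covariate takes up whatever they share with other short genes.

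DEX+PBS against PBS+PBS asked what DEX did alone. None of the 79 genes was called by edgeR or DESeq2 and none had an unadjusted p under 0.05, while 1 of all genes, or 0.00847%, was called. The median was -0.34, with 76 of 79 below 0, against -0.02 for all genes. Without scaling factors the median was 0.03, with the length slope as covariate 0.07, without PBS+PBS 4 0.34 and without the 4 libraries of low scaling factor 0.09, so its direction depended on scaling and on 1 library. No member was free of overlap between the groups, against 1.88% of all genes.

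DEX+TNF against PBS+TNF asked what DEX did before TNF. No member was called, none had an unadjusted p under 0.05 in edgeR and DESeq2 called none, where 0.339% of all genes were called. The median was -0.34, with 73 of 79 below 0, against 0.03 for all genes. It was -0.01 without scaling factors and 0.06 with the length slope as covariate, and it was 0.25 without PBS+TNF 1 and -0.92 without DEX+TNF 3 and 4. No member was free of overlap, against 6.38% of all genes. The lowest values were those of 2 paralogues. Rpl22l1 (ENSMUSG00000039221, chromosome 3, 28859585 to 28861573, plus strand, GRCm39) had 126, 17.1, 35.2 and 18.2 CPM in PBS+TNF and 12.9, 9.94, 33.9 and 18.5 in DEX+TNF. It had 18.4, 22.1, 10.7 and 76.4 in PBS+PBS, and 10.6, 16.2, 33.9 and 20.3 in DEX+PBS. PBS+TNF 1 was the highest library, followed by PBS+PBS 4, and the groups overlapped. Its log2 difference was -1.37 ± 0.66 (SE) with an adjusted p of 0.433 by edgeR, and -0.30 without PBS+TNF 1 and -2.07 without DEX+TNF 3 and 4.

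Rps27l, a direct p53 target beside the constitutive Rps27, had 407, 62.3, 116 and 57.9 CPM in PBS+TNF and 58.2, 58.1, 139 and 41.0 in DEX+TNF. Its log2 difference was -1.12 ± 0.63 (adjusted p = 0.511 by edgeR), and -0.08 without PBS+TNF 1. Rpl7l1 had -0.54 ± 0.28 (adjusted p = 0.461), between -0.69 and -0.35 when single libraries were left out. Both comparisons with PBS+TNF share its 4 libraries, so a high PBS+TNF library enters the first as a higher and the second as a lower value.

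DEX+TNF against DEX+PBS asked what TNF did after DEX. No member was called by edgeR or DESeq2 or had an unadjusted p under 0.05, where again 0.339% of all genes were called. The median was -0.04 (26 above 0 and 53 below), against 0.03 for all genes, and -0.57 without DEX+TNF 3 and 4. No member was free of overlap, against 4.68% of all genes. The highest value was that of Rps4l, 0.58 ± 0.41 (adjusted p = 0.703 by edgeR). Its levels were 3.88, 4.22, 5.15 and 4.95 CPM in DEX+PBS and 4.19, 5.17, 6.12 and 11.6 in DEX+TNF, of which DEX+TNF 1 lay within the DEX+PBS range and DEX+TNF 2 just above its upper end.

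The interaction, the TNF effect after DEX minus that after PBS, was not called for any member by edgeR or DESeq2. None had an unadjusted p under 0.05, and 0% of all 11809 genes were called. The median was -0.01 with a median SE of 0.697, so a difference of that size was not detectable at this spread. It was -0.58 without DEX+TNF 3 and 4.

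**Figure D4:**
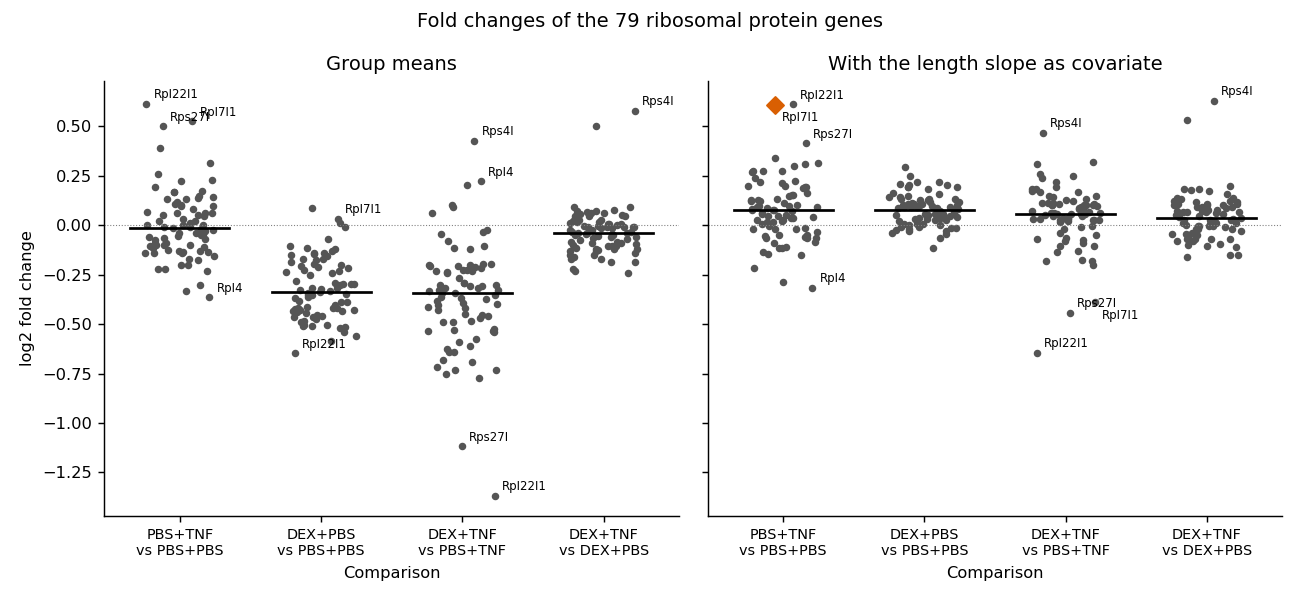
Points are the 79 genes, with the log2 fold change on the vertical axis for the 4 pairwise comparisons; black bars are medians, and the orange diamond is the only called member. Left, the fit by group means, in which the medians of DEX+PBS against PBS+PBS and DEX+TNF against PBS+TNF lie at -0.34 and no member was called; right, with the length slope of each library as covariate, medians lie between 0.03 and 0.08 and Rpl7l1 was called for PBS+TNF against PBS+PBS.

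A ratio within a library does not depend on its scaling factor, but it still takes up any shift that the 2 genes do not share. The log2 ratio of Rpl7l1 to Rpl7 was -2.87, -3.39, -3.12 and -3.71 in PBS+PBS and -3.08, -2.07, -2.67 and -2.75 in PBS+TNF. All but PBS+TNF 1 of the PBS+TNF libraries lay above every PBS+PBS library. The difference was 0.63 (exact permutation test, two-sided, p = 0.0571, adjusted p = 0.274 over the 16 tests of 4 pairs). The lowest ratios of these groups were in PBS+PBS 4 and PBS+TNF 1, the libraries of low scaling factor. Rpl7 was highest there within its group (575 and 438 TMM-scaled CPM). In DEX+PBS and DEX+TNF the lowest ratios were in replicate 4 (-3.38 and -3.40), not in the libraries of low factor. The ratio of Rpl22l1 to Rpl22 was -1.49, -1.20, -2.03 and -1.07 in PBS+PBS, and -0.22, -0.90, -0.79 and -1.40 in PBS+TNF. It was -1.63 ± 0.38 (SD, n = 4) in DEX+TNF, a difference from PBS+TNF of -0.80 (exact permutation p = 0.0857, adjusted p = 0.274). The ratio of Rps27l to Rps27 was -0.58 ± 0.12 in PBS+PBS, -0.38 ± 0.16 in PBS+TNF, -0.62 ± 0.38 in DEX+PBS and -0.81 ± 0.37 in DEX+TNF. None of the 16 tests passed, and with 4 against 4 libraries the smallest possible p is 0.0286.

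**Figure D5:**
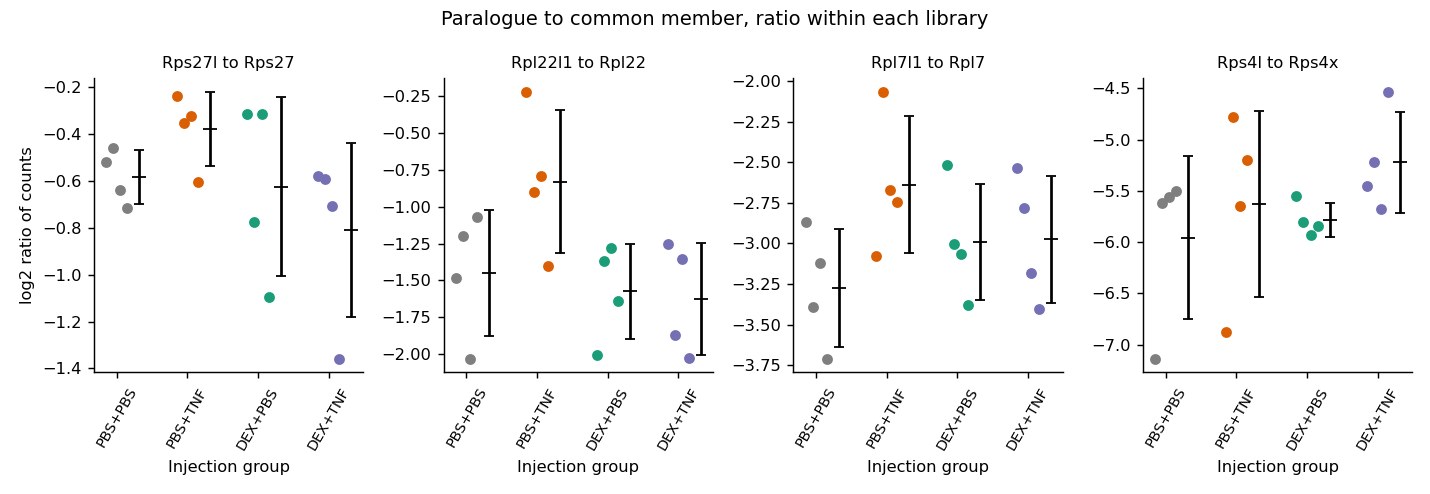
Each panel gives the log2 ratio of counts of a paralogue to its common member within each library, by injection group; points are libraries and bars the mean ± SD (n = 4). Groups overlap in all 4 panels, and the mean of Rpl22l1 to Rpl22 is highest in PBS+TNF (-0.83).

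Other genes of the ribosome's life were read from lists. Among 45 genes of ribosome biogenesis, 2 rose and none fell with TNF after PBS (median 0.27, 37 of 45 above 0, against -0.03 for all genes). The called share of this list was thus below the 12.5% of all genes called in this contrast, as was that of each of the 3 lists below. Nop58, a core protein of the box C/D particles that methylate ribosomal RNA, stood at 17.99 ± 5.03 CPM in PBS+PBS and 32.4 ± 3.86 in PBS+TNF (SD, n = 4; log2 0.85 ± 0.22 SE, adjusted p = 0.0181 by edgeR). Rrs1, which helps load the 5S particle, stood at 9.91 ± 1.67 and 15.3 ± 1.19 (log2 0.63 ± 0.19, adjusted p = 0.0366). On the TMM scale, neither Nop58 nor Rrs1 had overlapping libraries between those groups. Their calls were lost in 4 and 13 of the 31 alternatives, and adjusted p reached 0.567 and 0.841.

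Of 34 initiation factors, 1 rose: Eif6, which keeps the large subunit from joining the small one, went from 42.0 ± 21.4 to 170 ± 34.4 CPM (log2 2.02 ± 0.41, adjusted p = 0.00493 by edgeR) and was called in 30 of 31 alternatives. In DEX+TNF it stood at 130 and 159 CPM in libraries 1 and 2, and at 44.9 and 40.2 in libraries 3 and 4. None of 77 mitochondrial ribosomal protein genes and none of 13 elongation factors and ribosome partners was called with TNF after PBS by edgeR (2 and 0 with an unadjusted p under 0.05). No gene of these 4 lists was called in the other 4 contrasts. The mean levels of the mitochondrial ribosomal proteins and of the elongation factors and partners followed that of the cytosolic members over the libraries (r = 0.98 for both). That of ribosome biogenesis did not (r = -0.08), and that of the initiation factors had an r of 0.41. Median coding lengths were 588 and 876 bases for the first pair and 1740 and 1220 for the second.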

How the data were processed

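Paneth cells were sorted from mouse small intestine, and stranded mRNA libraries were sequenced per the labels. The authors deposited raw read counts per Ensembl gene. Their notes name mm39, FastQC 0.12, STAR 2.7.10a and DESeq2, while the counting program, use of strand and treatment of multi-mapping reads are not given in the sources used here. Names and coding lengths came from GENCODE M39, which lacked 665 identifiers (0.00519% of counts). Levels were divided by coding length in place of the planned transcript length. Windows of 31 bases were compared with GRCm39.

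Genes were filtered with filterByExpr, and TMM factors and quasi-likelihood tests (robust) were run in edgeR 4.0.16 (R 4.3.3) over all 16 libraries with 1 mean per group. P-values were adjusted by Benjamini-Hochberg within each of 5 contrasts (call: under 0.05), and the tests were tested on simulated data. The simulated counts were drawn independently for each gene. They hold no shift shared by genes within a library, so they do not cover that feature of these data. Log2 CPM used a prior count of 2. Paralogue ratios (0.5 counts added) used exact permutation tests (scipy 1.17.1). DESeq2 1.42.0 was an alternative. Members and lists were chosen with earlier results of these data known. By rule the text names called members, the 3 highest and 3 lowest in level and in correlation, a list of paralogues and stalk and signalling-related members, and called genes of other lists; some items are not reported here. Rpl19, Rpl24, Rps4x and Rps10 were named after their values were seen. All pairs within groups differed by more than sampling noise (chi-square per degree of freedom at least 8.78).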

Additional observations from a re-analysis of the deposited data

Results flagged for a closer look

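In 28 sets of 4 libraries, the gap between the extreme library and its neighbour, as a share of the group's range, was compared with Dixon's 95% critical value for 4 samples, and 4 sets passed. Chance flags about 1 set in 20. The mean level of the ribosomal protein genes in PBS+PBS was highest in replicate 4, with a gap of 0.874 of the range. The length slope in DEX+PBS was lowest in replicate 3 (0.858). The ratio of Rps4l to Rps4x in PBS+PBS was lowest in replicate 1 (0.926), where Rps4l stood at 1.80 CPM. The ratio of Rps27l to Rps27 in DEX+TNF was lowest in replicate 4 (0.837), the library with the most tuft cell and enterocyte markers. The causes were not tested.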

How the results depend on the processing

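Over the 5 contrasts, 151 of 154 alternative fits called 0 of the 79 genes and 3 called 1 gene, Rpl7l1 for PBS+TNF against PBS+PBS. Leaving out single libraries gave counts of 0 to 1 there, the 1 being without PBS+PBS 4; the count was also 1 with the length slope as covariate and 1 without the 4 libraries of low scaling factor. With the replicate block it was 0, with a median of 0.03, and the block changed no call of a member. Deviations of same-numbered libraries had correlations of -0.365 to 0.504, over 0.1 in 12 of 24 pairs. They were over 0.1 in all pairs of replicate 2 (0.153 to 0.412), but no pair of groups had all 4 numbers over 0.1, so the labels' numbers were not taken to pair the libraries. The median fold change moved by less than 1 SD between replicates (0.715 log2 units) under every alternative run, but its sign changed when single libraries were left out, with ranges of -0.58 to 0.67, -0.58 to 0.34, -0.69 to 0.25, -0.40 to 0.20 and -0.68 to 0.54 in the order of the 5 contrasts. For PBS+TNF against PBS+PBS, Rpl22l1 ran from -0.43 without PBS+TNF 1, a reversal, to 1.49 without PBS+PBS 4, and Rps27l from -0.53 to 1.24 likewise. The median correlation between members was 0.83 without scaling factors and 0.82 without the 4 libraries of low scaling factor. The causes were not tested. Limits are the 4 libraries a group, the SE of about 0.5 log2 units for most members, and 2 DEX+TNF libraries that lack the TNF response of Nfkbia. Reads shared with pseudogenes and overlapping genes could not be traced in a count table.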
